A study of Homo sapiens with 4 samples.

Results

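The MYC, MAX and MXD network was examined in RNAseq libraries of IMR-32 cells after NeuroD1 knockdown. Its members were taken as 10 genes by symbol, MYCN, MYC, MYCL, MAX, MXD1, MXD3, MXD4, MXI1, MNT and MGA, out of 60612 genes in the count table, and each symbol matched 1 gene ID. IMR-32 is an established line of human neuroblastoma cells in which MYCN is amplified. All 4 libraries came from cells stably carrying a doxycycline-inducible short hairpin RNA and given doxycycline at 1 µg/mL for 48 h, with a control hairpin in 2 libraries (shControl) and a hairpin against NeuroD1 in 2 libraries (shNeuroD1). The genotype label of the control cells reads WT, and the series text has parental, so only their hairpin is named here. The labels leave unnamed the NeuroD1 hairpin. The study had 2 NeuroD1 hairpins, numbered 1 and 2, and the numbers in the sample titles of both groups were read here as replicates. From the labels it cannot be told whether both shNeuroD1 libraries carry the same hairpin. The labels also do not tell whether replicate libraries came from separate cultures. The p-values thus measure the spread between these libraries, which may be technical. The study sequenced these cells to ask how NeuroD1 promotes proliferation, and then turned to N-Myc, the protein that MYCN encodes. These data hold RNA alone.

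Proteins of this network carry a basic helix-loop-helix leucine zipper, by which they pair and bind a short DNA motif called the E-box. MYC proteins (MYC, N-Myc and L-Myc) pair with MAX and recruit coactivators that acetylate histones and release paused RNA polymerase. The MXD proteins (MXI1 among them) and MNT compete for MAX and recruit the SIN3 and histone deacetylase corepressors, while MGA pairs with MAX inside a Polycomb complex, PRC1.6. In neuroblastoma, amplified MYCN marks high-risk disease.

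4 of the antagonist genes, MXD1, MXD3, MXD4 and MXI1, hold a coding exon of 30 bases with the first codons of the basic region, the stretch that contacts DNA. These exons are printed to show what the 4 proteins share beyond the name, read 5′ to 3′ on the coding strand from GENCODE 29 transcripts on GRCh38. Capitals mark the 16 positions where all 4 exons have the same base. The coordinates are chr2:69921736-69921765 (plus strand) for MXD1, chr5:177310668-177310697 (minus) for MXD3, chr4:2257982-2258011 (minus) for MXD4 and chr10:110244828-110244857 (plus) for MXI1.
MXD1: aTCaactCACAAtGAaaTgGAgAAGaataG
MXD3: gTCagtgCACAAtGAacTgGAgAAGcgcaG
MXD4: gTCttcaCACAAcGAgcTaGAaAAGcacaG
MXI1: aTCtacaCACAAtGAgcTgGAaAAGaatcG
Pairs of these exons were identical at 19 to 24 of 30 positions, with the most between MXD1 and MXI1. These 4 genes did not move together after NeuroD1 knockdown, as described for each of them below.

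NeuroD1 is itself a basic helix-loop-helix factor that binds E-boxes, so the promoters of the genes with the clearest changes, MXD4, MXD3 and MGA, are shown with that of MYCN. Each is the RefSeq window (GRCh38.p14) from 250 bases before to 50 bases after an annotated start, 5′ to 3′ on the gene's strand. The windows are chr4:2262060-2262359 (minus strand) for MXD4, chr5:177312703-177313002 (minus) for MXD3, chr15:41660155-41660454 (plus) for MGA and chr2:15940300-15940599 (plus) for MYCN. Capitals mark matches on either strand to CACGTG (the E-box of MYC and MAX), CATCTG (read as CAGATG on the other strand) or CAGCTG, and no match overlapped another.
MXD4: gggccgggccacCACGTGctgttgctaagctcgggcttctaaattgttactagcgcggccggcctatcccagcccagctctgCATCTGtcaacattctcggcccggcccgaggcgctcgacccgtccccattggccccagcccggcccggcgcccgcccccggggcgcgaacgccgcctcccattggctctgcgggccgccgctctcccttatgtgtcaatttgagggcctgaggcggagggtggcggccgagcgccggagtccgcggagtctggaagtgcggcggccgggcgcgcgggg
MXD3: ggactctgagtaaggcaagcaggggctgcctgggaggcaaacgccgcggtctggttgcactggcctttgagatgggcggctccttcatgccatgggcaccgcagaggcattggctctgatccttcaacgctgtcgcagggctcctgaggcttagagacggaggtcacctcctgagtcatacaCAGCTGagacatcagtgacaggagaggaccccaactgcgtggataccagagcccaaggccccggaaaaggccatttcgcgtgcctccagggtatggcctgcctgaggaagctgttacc
MGA: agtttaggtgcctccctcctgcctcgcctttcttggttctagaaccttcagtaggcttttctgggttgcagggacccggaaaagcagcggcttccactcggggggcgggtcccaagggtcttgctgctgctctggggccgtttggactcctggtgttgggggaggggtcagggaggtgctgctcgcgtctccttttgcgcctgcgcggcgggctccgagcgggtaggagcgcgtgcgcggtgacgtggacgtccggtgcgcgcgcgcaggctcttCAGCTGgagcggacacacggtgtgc
MYCN: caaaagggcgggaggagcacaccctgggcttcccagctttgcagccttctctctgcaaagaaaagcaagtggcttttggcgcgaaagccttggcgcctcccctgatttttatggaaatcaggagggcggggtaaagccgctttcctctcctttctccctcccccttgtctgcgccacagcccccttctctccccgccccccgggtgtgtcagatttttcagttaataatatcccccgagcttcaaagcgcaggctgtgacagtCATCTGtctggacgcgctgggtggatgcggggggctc
In the MXD4 window CACGTG began 238 bases before the start and CATCTG 168 bases before it. CAGCTG began 68 bases before the MXD3 start and 25 bases after the MGA start, and CATCTG began 13 bases after the MYCN start. MGA has 3 such windows, and the one printed is the one with a match. The MGA transcript start listed inside the printed window, at 41660412, did not exceed 0.102 FPKM in any library. The main MGA start, at 41668828, lay in none of the MGA windows. The MXD4 start tested in these data, at 2262022, and the MXD3 starts tested, at 177312646 and 177311870, also lay outside the printed windows. The MYCN start, at 15940550, lay inside its window. The distances above are thus from annotated starts and not from the starts listed in these libraries. Among the 14 windows of 9 member genes, CACGTG was found in 2 (MXD4 and MNT), CATCTG in 2 and CAGCTG in 2, against 7.26%, 14.7% and 17.9% of all 35116 windows. These matches are letters only, and binding was not measured here.

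The 4 libraries held 14665210 to 16482463 counts. NEUROD1, the targeted gene, was at 418.9 and 414.5 CPM (counts scaled to library size by TMM) in shControl and 63.7 and 58.2 CPM in shNeuroD1, a log2 fold change of -2.77 (edgeR adjusted p 8.6e-29). All 8 markers of sympathetic neuroblasts reached 1 CPM in at least 1 library, and they summed to 2141 and 2125 CPM in shControl and 1862 and 1822 CPM in shNeuroD1 (4 lower and 3 higher of 8 tested). 5 of 9 mesenchymal markers reached 1 CPM, with 194.7 and 189.2 CPM summed against 129.1 and 125.6 CPM and PRRX1 at 0, and they went both ways (TWIST1, COL1A1 and SNAI2 lower, LUM and COL3A1 higher). 4 of 5 Schwann and glial markers reached it, summing to 5.22 and 5.23 against 8.48 and 9.65 CPM (0 lower and 2 higher of 4 tested). Of 4 epithelial markers only EPCAM did, at 0 and 0.0630 CPM in shControl and 1.84 and 1.38 CPM in shNeuroD1 (edgeR adjusted p 7.0e-07), with CDH1 and KRT5 at 0. The 4 blood markers stayed under 1 CPM, with CD3E at 0. The part of these marker shifts in the results was not tested, and in bulk RNA fewer cells of a type and less RNA per cell cannot be told apart. Of 17537 genes tested, 55.0% passed an adjusted p under 0.05 (28.2% lower and 26.8% higher in shNeuroD1), and 13.9% also had a log2 fold change beyond 1 in size. Under library size alone, without TMM, the split was 3639 lower and 6114 higher in place of 4939 and 4698.

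Among the members, MXD4 and MXD1 rose and MGA and MXD3 fell after NeuroD1 knockdown, while no change in MYCN was detected. MGA and MXD3 were each below a log2 fold change of -1. 9 of the 10 members had enough counts to test, and 3 passed as lower (MGA, MXD3, MAX), 3 as higher (MXD4, MXD1, MNT), and 3 did not pass (MYCN, MXI1, MYCL). That is 6 of 9, beside the 55.0% of all genes tested that passed, and 2 of 9 beyond a log2 fold change of 1, beside 13.9%. The median log2 fold change was -0.01 for the 9 members and 0.01 for all genes. The plot of CPM by gene shows each library.

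**Figure D1:**
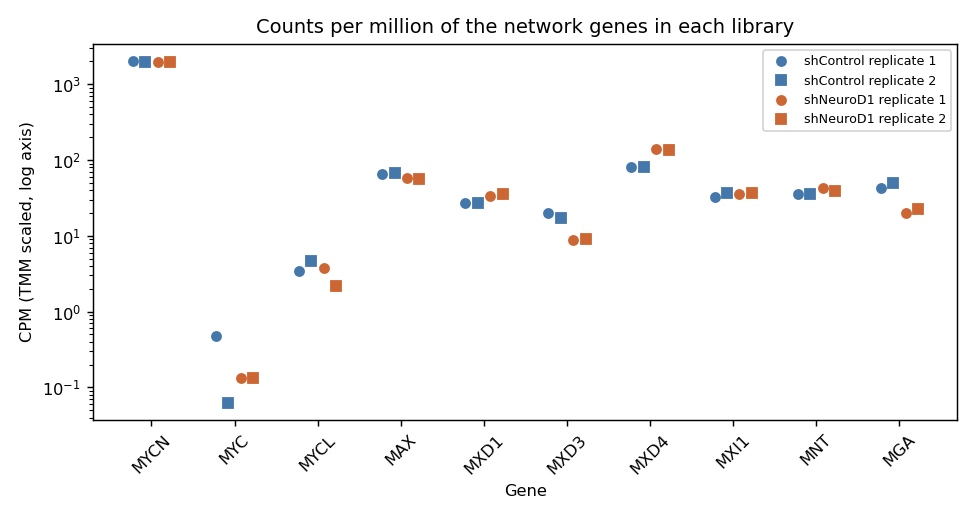
CPM of the 10 members (x axis) in each of the 4 libraries on a log axis (y axis), blue for shControl and orange for shNeuroD1. MYCN lies between 1944.6 and 2024.5 CPM, MYC is under 1 CPM, the MGA and MXD3 points of shNeuroD1 lie below those of shControl, and the MXD4 and MXD1 points lie above.

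MYCN (ENSG00000134323, GRCh38 chromosome 2, 15940564 to 15947007, plus strand) was the most abundant of the 3 MYC genes. Its counts were 29840 and 30880 under shControl and 29956 and 30146 under shNeuroD1, or 0.187% to 0.205% of all counts, and ranked 22nd to 27th among all genes by count. Scaled by TMM, this was 2024.5 and 1944.6 CPM against 1969.2 and 1979.7 CPM. The knockdown values lay between those of the controls. The log2 fold change was -0.01 (edgeR adjusted p 0.886, SE 0.0372), and its sign depended on the scaling, with 0.11 (adjusted p 0.0139) under library size alone, where the median of all genes moved to 0.12. MYCNOS, an antisense gene that shares 98 exon bases with MYCN, was at 163.6 and 179.9 CPM in shControl and 139.0 and 139.0 CPM in shNeuroD1 (log2 fold change -0.31, edgeR adjusted p 3.4e-06). Whether strand was used in counting is not given, so reads over the shared bases cannot be assigned to either gene.

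MYC, the paralog used by many other tumours, reached 7 and 1 counts with shControl and 2 and 2 with shNeuroD1, too few to test. MYCL, which encodes L-Myc (chromosome 1, 39895426 to 39902256, minus strand), held 50 and 75 counts under shControl and 57 and 33 under shNeuroD1. These libraries overlapped, at 3.39 and 4.72 CPM against 3.75 and 2.17 CPM, and the log2 fold change of -0.46 (SE 0.255) did not pass (edgeR adjusted p 0.127). Without shNeuroD1 replicate 1, which held 57 counts, it was -0.91 and passed (edgeR adjusted p 0.0110).

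MAX, the shared partner (ENSG00000125952, chromosome 14, 65006174 to 65102695, minus strand), was at 64.7 and 67.1 CPM in shControl and 57.9 and 57.0 CPM in shNeuroD1. Both knockdown libraries lay below both controls, at 87.2% of the control level, and MAX fell by 0.20 on the log2 scale (edgeR adjusted p 0.00589, SE 0.0604). The call was lost in DESeq2 (-0.21, adjusted p 0.0846) and under library size alone (-0.09, adjusted p 0.230). It was also lost without shControl replicate 2 and without shNeuroD1 replicate 2 (edgeR adjusted p 0.0658 and 0.0693).

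The MXD antagonists moved in both directions. MXD4 (ENSG00000123933, chromosome 4, 2247432 to 2262294, minus strand), which encodes the repressor MAD4, went from 1183 and 1272 counts under shControl to 2135 and 2082 under shNeuroD1. At 80.3 and 80.1 CPM against 140.3 and 136.7 CPM the groups stood well apart, and MXD4 rose to 173% of the control level (log2 fold change 0.79, edgeR adjusted p 1.2e-14, SE 0.0510). MXD1 (ENSG00000059728, chromosome 2, 69897688 to 69942945, plus strand), which encodes the antagonist MAD1 that is induced in many differentiating cells, was at 27.2 and 27.1 CPM in shControl and 34.1 and 35.2 CPM in shNeuroD1. Its groups did not overlap either, and it rose by a log2 fold change of 0.35 (edgeR adjusted p 0.00042, SE 0.0805). SNRNP27, a splicing factor gene that shares 237 exon bases with MXD1 on the same strand, moved the other way, at -0.30 (edgeR adjusted p 8.2e-05).

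MXD3 (ENSG00000213347, chromosome 5, 177301461 to 177312757, minus strand), the MXD member known for expression in proliferating cells, went the opposite way. Its counts were 294 and 272 in shControl and 135 and 137 in shNeuroD1, or 19.9 and 17.1 CPM against 8.874 and 8.997 CPM. Every knockdown value was below every control, at 48.2% of the control level (log2 fold change -1.05, edgeR adjusted p 1.7e-08, SE 0.126). A large part of its exons is shared with its neighbours. PRELID1, on the opposite strand, covers 22.5% of the MXD3 exon bases and had a log2 fold change of -0.22 (edgeR adjusted p 0.00525). RAB24, on the same strand, covers 18.0% and was at -0.06 without passing (edgeR adjusted p 0.721).

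MXI1 (ENSG00000119950, chromosome 10, 110207605 to 110287365, plus strand), the remaining gene of this class, was at 32.2 and 36.4 CPM in shControl and 36.0 and 36.8 CPM in shNeuroD1. The groups overlapped, and the log2 fold change of 0.08 (SE 0.0787) did not pass (edgeR adjusted p 0.387). Under library size alone MXI1 passed as higher (0.20, edgeR adjusted p 0.0358), and without shControl replicate 1 its value was -0.01.

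MNT and MGA antagonise MYC outside the MXD class. MNT (ENSG00000070444, chromosome 17, 2384060 to 2401118, minus strand), which is found in most cells whether they divide or not, was at 35.8 and 36.0 CPM in shControl and 42.7 and 38.7 CPM in shNeuroD1. The groups did not overlap, but the log2 fold change of 0.18 (edgeR adjusted p 0.0402, SE 0.0749) was close to the threshold. It was lost in DESeq2 (adjusted p 0.346), with no filter on low counts (0.152) and without shControl replicate 1, shControl replicate 2 or shNeuroD1 replicate 1 (edgeR adjusted p 0.225, 0.214 and 0.409). An antisense gene, AC006435.1, shares 12.2% of the MNT exon bases and had 0 counts in every library.

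MGA (ENSG00000174197, chromosome 15, 41621224 to 41773081, plus strand), a very large protein with both a T-box and a helix-loop-helix domain, showed the largest fall of the members. Counts were 628 and 785 under shControl, against 305 and 341 under shNeuroD1. The levels were 42.6 and 49.4 CPM against 20.05 and 22.39 CPM, so both knockdown libraries were below both controls at 46.1% of the control mean. The log2 fold change was -1.12 (edgeR adjusted p 1.1e-12, SE 0.0869). Leaving out each library in turn gave -1.23 to -1.02 for MGA, -1.17 to -0.95 for MXD3, 0.77 to 0.81 for MXD4 and 0.33 to 0.37 for MXD1, and each of these calls held. In limma on log2(FPKM + 1) all 4 kept their direction, at -0.77, -1.14, 0.74 and 0.37, but did not pass (adjusted p 0.129, 0.157, 0.262 and 0.205). Other annotated genes overlap the members' exons too, from MIR4800, which shares 1.13% of the MXD4 exon bases, to AL033527.2, which shares 4.46% of those of MYCL, with AC073657.1 (MGA), AL139022.1 (MAX) and AL360182.2 (MXI1) between them. MIR4800, AC073657.1 and AL360182.2 had 0 counts in every library, AL033527.2 no more than 1, and AL139022.1 from 7 to 14. FNTB overlaps MAX on the opposite strand without shared exon bases.

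**Figure D2:**
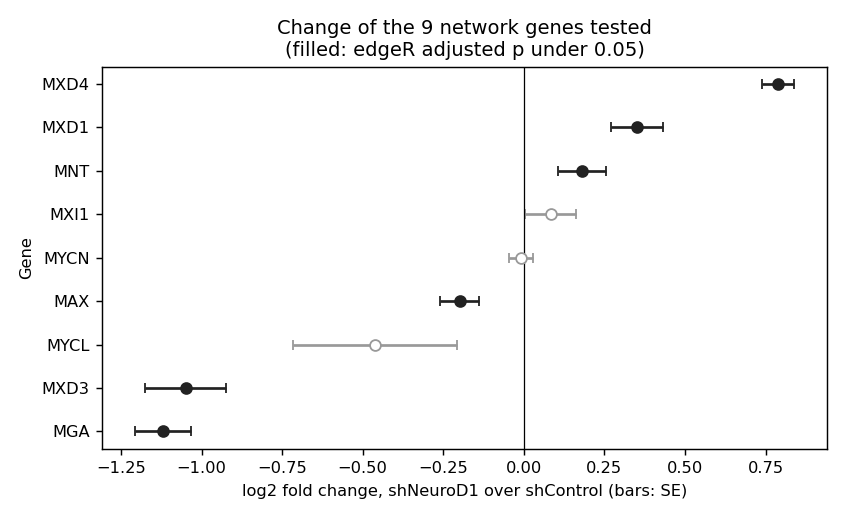
Log2 fold change of the 9 members tested (x axis, shNeuroD1 over shControl, bars SE) for each gene (y axis), filled where the edgeR adjusted p was under 0.05. MGA at -1.12 and MXD3 at -1.05 lie far left, MXD4 at 0.79 far right, and MYCN at -0.01 on the zero line.

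Levels between genes were compared per length, in FPKM summed over the transcript starts of a gene. In shControl MYCN stood at 507 and 475 FPKM, and MAX, next in order, at 21.5 and 21.8 FPKM. MXD4 followed (11.3 and 5.86 FPKM), then MXI1 (6.70 and 8.03), MXD3 (6.09 and 6.66), MNT (4.35 and 3.16), MXD1 (3.55 and 3.14) and MGA (2.25 and 2.12). The MXD4 libraries spanned those of both MXI1 and MXD3, and those of MNT and MXD1 overlapped, so these neighbours were not separated. MYC and MYCL did not exceed 0.0784 FPKM in any library, and MYCL was unlisted in 2 of them although it held counts there. In shNeuroD1 the order below MYCN was MAX (mean 19.4 FPKM), MXD4 (14.6), MXI1 (8.69), MNT (6.03), MXD1 (4.61), MXD3 (2.55) and MGA (0.889). On these sums MXD3 moved from above MNT and MXD1 to below them. On a second scale, CPM per kilobase of exon with libraries scaled by total counts and not by TMM, MXD3 was already below both in shControl (3.45 against 3.95 for MNT and 4.10 for MXD1), and MXD4 stood above MAX in shNeuroD1 (20.4 against 13.5). MYCL was at 0.641 and 0.899 on that scale in shControl and 0.768 and 0.444 in shNeuroD1, and MYC at no more than 0.151. The MXD3 sum includes starts inside the RAB24 gene, at 1.03 and 0.726 FPKM in shControl replicate 1. Its other starts in that library were at 2.11 and 2.22 FPKM, beside 4.35 FPKM for MNT. The MNT sum in shNeuroD1 includes inner starts that were unlisted in shControl (means 0.704 and 0.827 FPKM). The main MNT start alone had a mean of 4.50 FPKM in shNeuroD1, below MXD1.

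The 6 antagonists together (MXD1, MXD3, MXD4, MXI1, MNT and MGA) summed to 34.25 and 28.97 FPKM in shControl and 37.7 and 37.1 FPKM in shNeuroD1. This FPKM sum holds the inner MNT starts and the MXD3 starts inside RAB24 given above, and no ratio was computed without them. The MYCN level was 14.8 and 16.4 times this sum in shControl and 14.3 and 14.4 times in shNeuroD1. In CPM per kilobase of exon the sum was 31.6 and 32.5 against 42.3 and 41.9, and MYCN was 23.6 and 22.1 times the sum in shControl and 18.6 and 18.9 times in shNeuroD1. On both scales MYCN exceeded its antagonists by more than 14 times in every library, and the ratio was lower in shNeuroD1 without overlap. The ratio of MYCN to MAX went the other way, also without overlap, with 23.6 and 21.8 in shControl and 27.2 and 28.04 in shNeuroD1 by FPKM, and 53.3 and 49.3 against 57.9 and 59.1 in CPM per kilobase. With 2 libraries against 2 an exact permutation test cannot go below p = 0.333, so these ratios are given without a call.

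**Figure D3:**
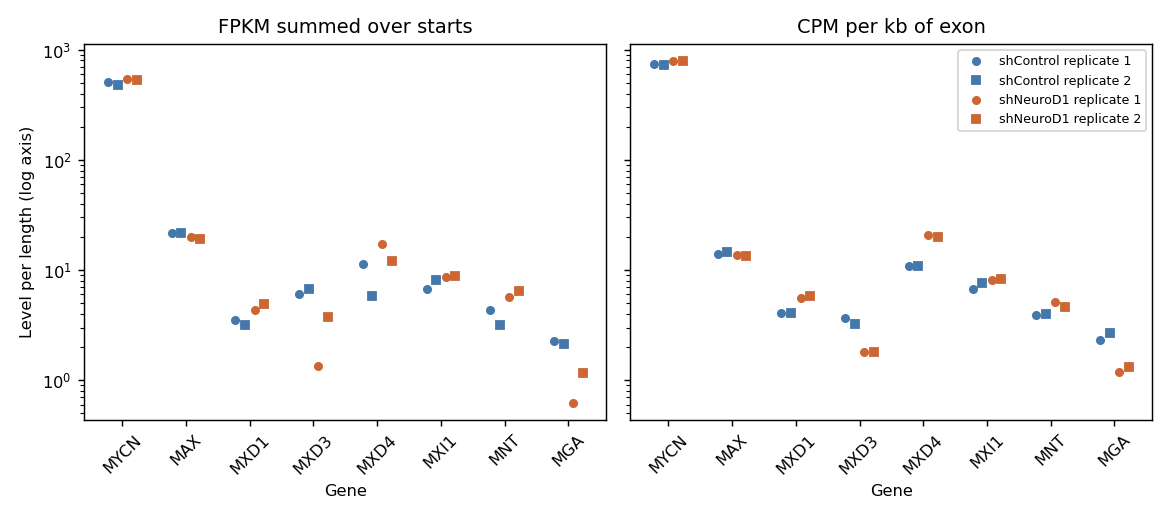
Level per length of the 8 members other than MYC and MYCL (x axis) in each library on a log axis (y axis), as FPKM summed over transcript starts (left) and as CPM per kilobase (right). MYCN lies far above MAX on both scales, and the MGA points of shNeuroD1 lie lowest on both.

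The transcript tables resolved MYCN into forms that share a start and differ in splicing. In the most abundant form the first exon ran from 15940550 to 15940743 on chromosome 2, at 402 and 366 FPKM in shControl and 452 and 447 FPKM in shNeuroD1. A longer first exon, ending at 15941053 and so 310 bases longer, was at 105.0 and 108.2 FPKM in shControl and 88.05 and 87.0 FPKM in shNeuroD1. That end is in no GENCODE 29 transcript of MYCN, and 80 of the extra bases lie inside MYCNOS exons. The long form took 20.7% and 22.8% of MYCN FPKM in shControl and 16.3% and 16.3% in shNeuroD1, and the controls lay above both knockdown libraries. By an exact permutation test (two-sided, 2 against 2) p was 0.333, the smallest value it can give. In limma on log2(FPKM + 1) the log2 difference was 0.23 for the short form (SE 0.0940, adjusted p 0.339) and -0.28 for the long form (SE 0.0807, adjusted p 0.229), and neither passed.

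Exon 2 of MYCN (chromosome 2, 15941948 to 15942854, 907 bases) holds the start codon of the main coding transcript at 15942065. Transcripts with the short first exon that skipped it were listed at 35.4 and 22.7 FPKM in shControl and 7.95 and 53.0 FPKM in shNeuroD1. They made up 6.98% and 4.79% of MYCN FPKM in shControl and 1.47% and 9.92% in shNeuroD1, so the knockdown libraries spanned the controls (exact permutation test, two-sided, p = 1). GENCODE 29 has 1 MYCN transcript without exon 2, with its own start codon in the first exon at 15940587. All long-first-exon transcripts listed included exon 2.

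**Figure D4:**
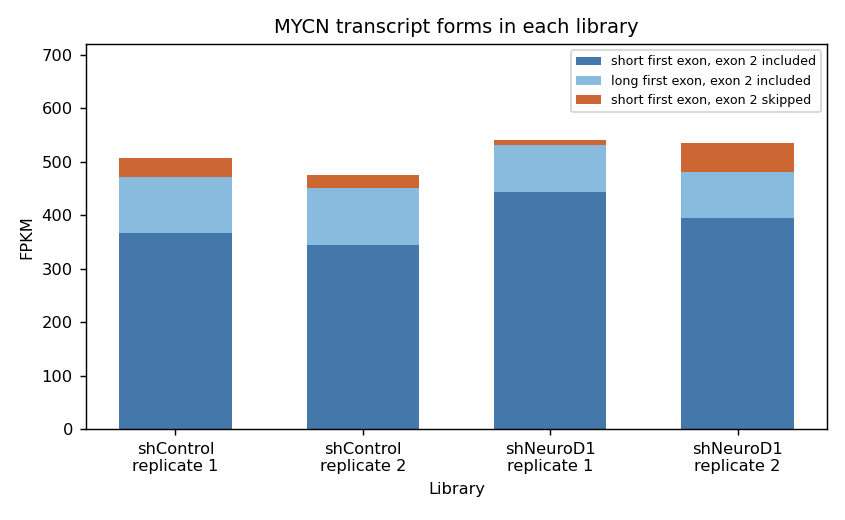
Stacked bars of MYCN FPKM (y axis) in each library (x axis), split into the short first exon with exon 2, the long first exon with exon 2 and the short first exon without exon 2. The long form is lower in both shNeuroD1 libraries (88.05 and 87.0 FPKM) than in both shControl libraries (105.0 and 108.2 FPKM), and the skipped form varies within shNeuroD1 from 7.95 to 53.0 FPKM.

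Of 24 transcript starts listed inside the members, 10 reached a mean of 1 FPKM and were tested. None passed in limma, beside 0.0139% of the 14382 starts tested that did, and 2 of the 10 had an unadjusted p under 0.05 (2593 of all starts did). These were the long MYCN form and an MXD3 start (chromosome 5, 177312121 to 177312646), which was at 2.22 and 4.21 FPKM in shControl, 0.577 in shNeuroD1 replicate 1 and unlisted in shNeuroD1 replicate 2 (limma adjusted p 0.211). The other MXD3 start tested was at 2.11 and 2.39 FPKM in shControl and 0.735 and 3.75 FPKM in shNeuroD1, where the 2 knockdown libraries fell on either side of the controls. The main MGA start was at 1.66 and 1.97 FPKM in shControl and 0.4999 and 1.015 FPKM in shNeuroD1, without overlap. MXI1 used mainly one start, at 5.87 and 6.35 FPKM against 7.72 and 8.36 FPKM, and a second start, at 0.815 and 1.68 against 0.903 and 0.402 FPKM.

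Skipping of the 30-base basic-region exons printed above was listed at no more than 0.0071 FPKM in MXD1 and MXD3. In MXD3 the exon was spliced in at 2.23 and 4.33 FPKM in shControl and 0.624 and 2.29 FPKM in shNeuroD1, and the groups overlapped. Transcripts that retain the introns on both sides of that exon were listed at 2.09 and 2.26 against 0.681 and 0.834 FPKM. In MXI1, transcripts that skip it were unlisted and at 0.657 FPKM in shControl and at 1.70 and 1.22 FPKM in shNeuroD1, beside 6.70 and 7.38, then 6.93 and 7.53 FPKM that include it. Skipping was thus higher in both knockdown libraries, without a test.

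MAX is made in a long and a short form that differ by a coding exon of 27 bases near the amino terminus. The exon is printed because it is the member exon most evenly included and skipped here, at chr14:65101546-65101572 on the minus strand, 5′ to 3′ on the coding strand of GENCODE 29.
MAX exon: gaagagcaaccgaggtttcaatctgcg
It was included at 7.58 and 9.41 FPKM in shControl and 7.54 and 8.82 FPKM in shNeuroD1, and skipped at 13.8 and 12.3 against 12.2 and 10.1 FPKM. The included share came to 35.4% and 43.3% with shControl and to 38.2% and 46.6% with shNeuroD1, and the groups overlapped (difference 3.03 percentage points, exact permutation test, two-sided, p = 0.667).

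Most genes of the PRC1.6 complex around MGA were lower after NeuroD1 knockdown, and none was higher. Of 13 tested, 11 passed as lower and 0 as higher, beside 28.2% and 26.8% of all genes, with a median log2 fold change of -0.26 against 0.01 for all genes. The changes were small, and 0 of the 13 passed with a log2 fold change beyond 1 in size, beside 13.9% of all genes. PCGF6, the Polycomb subunit that defines the complex, fell most, from 28.63 and 28.02 CPM to 16.2 and 14.1 CPM (log2 fold change -0.90, edgeR adjusted p 2.6e-09). E2F6, its E2F-family DNA-binding subunit, fell from 83.1 and 81.0 CPM to 46.3 and 48.8 CPM (-0.79, edgeR adjusted p 9.0e-13). CBX1, a chromodomain protein, fell by 0.31 on the log2 scale (edgeR adjusted p 3.2e-08). The counts were 8 lower and 0 higher in DESeq2 (18.5% and 14.3% of all genes) and 8 lower and 1 higher under library size alone (20.8% and 34.9%). None passed in the FPKM fits, where 3.11% and 2.65% of all genes did with pseudocount 1 and 2.70% and 2.15% with 0.1. This list shares WDR5 with the coactivators and HDAC1 and HDAC2 with the corepressors.

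The SIN3-HDAC corepressors, which MXD and MNT proteins recruit, had 10 lower and 2 higher of 16 tested, beside 28.2% and 26.8% of all genes, with a median of -0.26. Beyond a log2 fold change of 1 in size were 0 of the 16, beside 13.9% of all genes. SIN3A, the scaffold that MXD proteins bind directly, fell from 147.9 and 151.1 CPM to 96.0 and 94.9 CPM (log2 fold change -0.65, edgeR adjusted p 6.8e-13). ING1, a reader of methylated histones, was at -0.47 (edgeR adjusted p 0.00039), and SUDS3, a SIN3 subunit, was at -0.47 (edgeR adjusted p 1.7e-08). DESeq2 gave 8 lower and 0 higher, beside 18.5% and 14.3% of all genes.

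The MYC coactivators had 11 lower and 4 higher of 21 tested, beside 28.2% and 26.8% of all genes, with a median of -0.13. Beyond a log2 fold change of 1 in size were 0 of the 21, beside 13.9% of all genes. The largest changes were in TOP2A, a topoisomerase of dividing cells that fell from 828.0 and 813.6 CPM to 449.7 and 463.9 CPM (log2 fold change -0.85, edgeR adjusted p 3.3e-18), and in ACTL6A, a subunit of histone acetylase and remodelling complexes (-0.62, edgeR adjusted p 1.0e-11). TRRAP, the scaffold through which MYC proteins recruit histone acetylases, rose from 156.2 and 166.1 CPM to 212.7 and 212.1 CPM (0.40, edgeR adjusted p 7.3e-09). Under library size alone the counts were 6 lower and 4 higher, beside 20.8% and 34.9% of all genes, and in DESeq2 8 and 2, beside 18.5% and 14.3%. In the parallel MLX arm, whose proteins pair with MLX in place of MAX, 1 of 3 genes passed, beside 55.0% of all genes, namely MLXIP, a glucose-responsive factor, at 0.17 (edgeR adjusted p 0.00243), and it did not pass in DESeq2.

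**Figure D5:**
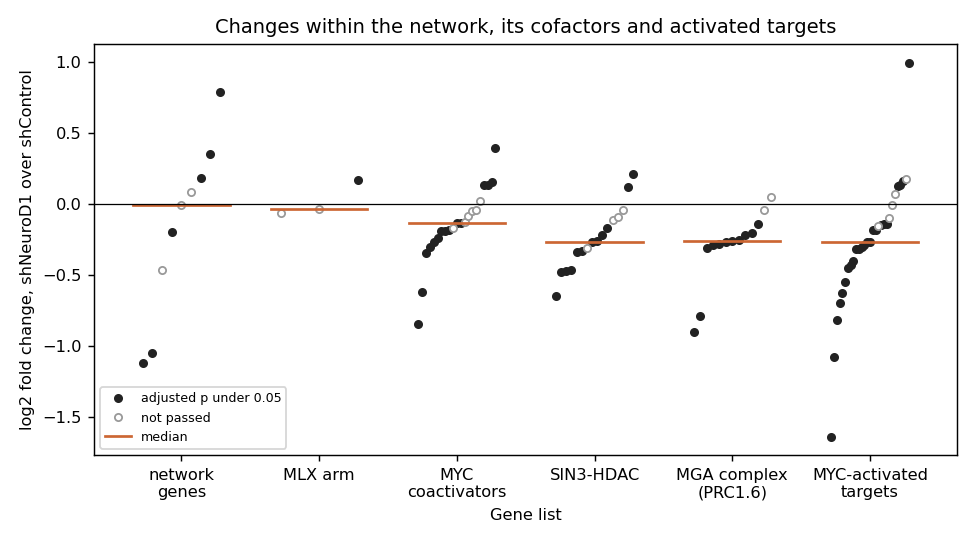
Log2 fold change of each gene tested (y axis, shNeuroD1 over shControl) in 6 gene lists (x axis), filled where the edgeR adjusted p was under 0.05, with the list's median as a line. The medians of the PRC1.6, SIN3-HDAC and MYC-activated lists lie at -0.26, and the coactivators at -0.13.

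Of 30 textbook MYC-activated genes, 29 were tested, and 20 passed as lower and 4 as higher, beside 28.2% and 26.8% of all genes, with a median of -0.26. Beyond a log2 fold change of 1 in size, 2 passed as lower and 0 as higher, beside 13.9% of all genes in either direction. DESeq2 gave 20 lower and 1 higher (18.5% and 14.3% of all genes), and library size alone gave 15 and 6 (20.8% and 34.9%). The largest falls with at least 10 CPM were in metabolic and cell cycle genes. SHMT2, the mitochondrial serine hydroxymethyltransferase, fell from 482.1 and 456.4 CPM to 155.9 and 146.1 CPM (log2 fold change -1.64, edgeR adjusted p 5.0e-24), HK2, a hexokinase of glycolysis, by 1.08 on the log2 scale (edgeR adjusted p 2.0e-20) and CDK4, the G1 cyclin-dependent kinase, by 0.82 (edgeR adjusted p 7.1e-17). Rises were found in POLR1B, a subunit of RNA polymerase I (0.16), CAD of pyrimidine synthesis (0.13) and TFRC, the transferrin receptor (0.13), with edgeR adjusted p of 0.00803, 0.0187 and 0.0109. TERT, the telomerase catalytic subunit, was the remaining rise, at 4.82 and 4.47 against 8.09 and 10.4 CPM (1.00, edgeR adjusted p 1.4e-05), and was named after its values were seen.

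The list of MYC-repressed genes had 5 lower and 5 higher of 13 tested (16 in the list), beside 28.2% and 26.8% of all genes, which are also near an even split, and a median of 0.01. Beyond a log2 fold change of 1 in size, 4 passed as lower and 3 as higher, beside 13.9% of all genes in either direction. NGFR, the p75 neurotrophin receptor, fell from 86.1 and 86.5 CPM to 4.54 and 4.01 CPM (log2 fold change -4.33, edgeR adjusted p 2.1e-26). GADD45G, a growth arrest gene, had a log2 fold change of -2.998 (edgeR adjusted p 8.5e-17). CLU, a secreted chaperone, rose from 6.78 and 7.75 CPM to 40.4 and 35.3 CPM (2.38, edgeR adjusted p 3.7e-18), DKK1, a secreted WNT inhibitor, by 1.09 (edgeR adjusted p 8.0e-17) and CDKN1C, a cyclin-dependent kinase inhibitor, by 0.94 (edgeR adjusted p 8.7e-08). CDKN1A, which encodes the inhibitor p21 and was also named after its values were seen, was at -0.04 and did not pass (edgeR adjusted p 0.611).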

How the data were processed

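Raw read counts per gene in 4 IMR-32 libraries were deposited by the authors. Per the labels, the submitters' processing notes name cutadapt 1.9.1, HISAT2 2.0.1, HTSeq 0.6.1, DESeq2 and hg38, without roles, and the use of strand in counting was not given in the sources used here. The authors also deposited FPKM of assembled transcript starts, ends and splicing events per library, with the assembly tool not given; 91.2% of 15874 transcript ends overlapped their gene in GENCODE 29. Groups and replicate numbers came from sample titles.

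Counts were compared in edgeR 4.0.16 (R 4.3.3; filterByExpr with minimum count 10, TMM, glmQLFit and glmQLFTest, two-sided, Benjamini-Hochberg over 17537 genes). A gene was called at an adjusted p under 0.05. The study used DESeq2, run here as an alternative (1.42.0). Transcript starts were compared in limma 3.58.1 on log2(FPKM + 1), for starts with a mean of at least 1 FPKM and unlisted ones as 0. A gene's FPKM was summed over starts inside its annotated gene with 500 bases either side, since some loci were merged with a neighbour. Promoter windows were matched by symbol for 9 members. The fit was tested on simulated data.

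The members and the lists of partners and targets were written by hand with earlier results of these data known, so the lists are described by counts and medians. Genes named are all members, NEUROD1, genes overlapping a member, and in each list up to 3 with the largest called change among those at 10 CPM or more (for targets, 3 falls and 3 rises). 1 gene that this rule names is not reported here. Alternatives were size factors of DESeq2, library size alone, no filter, a mean of at least 1 CPM, the replicate number as a block, FPKM fits with pseudocounts 1 and 0.1, and leaving out each library. Levels as CPM per kilobase were added after seeing the data. Libraries of a group differed by more than sampling noise (chi-square per gene 2.53 and 1.56). Counting error sets the precision of low genes such as MYC.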

Additional observations from a re-analysis of the deposited data

How the results depend on the processing

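The calls of MGA, MXD3, MXD4 and MXD1 held in every count-based fit that was run. In limma on FPKM no member passed with either pseudocount (0 lower and 0 higher of 8 tested). Of all genes, 3.11% passed as lower and 2.65% as higher with pseudocount 1, and 2.70% and 2.15% with 0.1. All of the 6 members called in edgeR kept their sign in these fits. Under library size alone 5 of 9 members passed as higher and 2 as lower, beside 34.9% and 20.8% of all genes. MYCN, near 0, turned positive at 0.11 (library size alone), 0.0059 (genes at 1 CPM or more) and 0.13 (both FPKM fits), and spanned -0.0464 to 0.0113 as each library was left out. MXI1 spanned -0.0119 to 0.17 in the same way. Over the partner and target lists, 55 of 92 genes were lower and 16 higher, beside 28.2% and 26.8% of all genes. The shares of all genes include genes with few counts, where small changes are harder to call, and no share was computed for genes at like counts. The higher count was 10 of 96 with no filter (11.6% of all genes) and 8 of 92 in DESeq2 (14.3%). It was 3 of 82 in both FPKM fits (2.65% and 2.15% of all genes). In those fits 6 were lower (3.11% and 2.70% of all genes). Leaving out each library gave 2 to 4 members lower and 2 to 3 higher, and 43 to 49 list genes lower and 9 to 11 higher, with the spread of the lone library taken from the other group. Measured as CPM per kilobase, MYCN over the antagonist sum moved from 15.6 to 22.9 in shControl and from 14.4 to 18.7 in shNeuroD1. The cause of these shifts was not tested. Same-numbered libraries share only a number (correlation of deviations 0.0158). The replicate block left the counts of members at 3 lower and 3 higher and of list genes at 55 and 16. In that fit 28.5% of all genes were lower and 27.1% higher, and NEUROD1 was at -2.77. With 2 libraries a group, small changes such as those of MAX and MNT were at the limit of detection.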
